A study of Mus musculus with 2 samples.

Results

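The immunity-related GTPases (IRGs) are a family of interferon-induced GTP-binding proteins of the mouse. The members considered are Iigp1, Igtp, Irgm1, Irgm2, Ifi47 and Tgtp1, and a member was measured where a probe set of the array carried its symbol in the platform annotation. That held for 4 of the 6, Iigp1, Igtp, Irgm1 and Irgm2, each with 1 probe set, among 19505 genes in all. Ifi47 and Tgtp1 had no probe set under their symbol, and no expression value is given for them. RNA of mouse CD8 T cells from spleen and lymph node was hybridised to Affymetrix arrays, 1 array of Tc9 cells and 1 array of Tc1 cells, in a study that looked for genes expressed more highly in Tc9 cells. Tc9 and Tc1 cells are CD8 T cells polarized toward interleukin 9 and toward interferon gamma production. The Tc9 cells were activated through CD3 and CD28 for 3 days in medium with TGF-beta at 1 ng/mL, IL-4 at 10 ng/mL and, at 20 µg/mL, the antibody XMG1.2, which neutralizes interferon gamma. The Tc1 cells were activated in the same way for 3 days in medium with 10 ng/mL human IL-2. Both cultures then had 2 more days in medium with 10 ng/mL human IL-2 and were collected on day 5. The Tc9 sample is so named by its title and description, while its source name reads Tc1. The sources used here do not give the strain, age or number of mice behind each array. Since each group is a single array, no difference below has an error, a replicate or a p-value, and each describes this pair of arrays.

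Mouse IRG genes are transcribed at low levels in most resting cells and are induced by interferons, interferon gamma most of all, with factors of the IRF family among their activators. The proteins fall into a pair of classes by the letters of their first GTP-binding motif. The effector class, named GKS after that motif, holds Iigp1, Tgtp1 and Ifi47, and in mouse cells its proteins coat and disrupt the vacuoles in which Toxoplasma gondii and Chlamydia live. The regulator class, named GMS, holds Irgm1, Irgm2 and Igtp, which sit on membranes of the host cell and hold the effectors in their inactive state there. Irgm1 is also known, from mice that lack it, to protect T cells exposed to interferon gamma from death linked to autophagy.

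RefSeq (GRCm38.p6) promoter windows, which run from 250 bases before the annotated start to 50 after it, were on hand for 5 of the 6 members, Igtp, Irgm2, Irgm1, Tgtp1 and Ifi47. Stretches with a match are shown so that the letters of an ISRE and of a GAS can be compared between the genes, and of these genes Igtp, Irgm2 and Irgm1 have an expression value below. An ISRE, the interferon-stimulated response element that IRF factors bind, was searched as GAAA, any 2 bases and GAAA again, and a GAS, the interferon gamma-activated sequence, as TTC, any 3 bases and GAA, both on both strands. Of 32851 promoter windows in the RefSeq table, 3.44% held the ISRE letters, 8.30% the GAS letters and 0.454% both. Among the 5 members, the ISRE stood in 4 and the GAS in 3, and the window of Ifi47 held neither. In the stretches below, written 5′ to 3′ along the gene's strand, capitals mark bases of a match to either motif. Igtp is from chr11:58199497-58199541 on the plus strand, Irgm2 from chr11:58214888-58214932 on the plus strand, Irgm1 from chr11:48871425-48871475 on the minus strand and Tgtp1 from chr11:48992304-48992348 on the minus strand.
Igtp: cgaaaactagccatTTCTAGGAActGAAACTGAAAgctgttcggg
Irgm2: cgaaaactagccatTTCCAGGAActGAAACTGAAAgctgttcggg
Irgm1: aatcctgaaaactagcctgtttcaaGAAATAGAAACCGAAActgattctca
Tgtp1: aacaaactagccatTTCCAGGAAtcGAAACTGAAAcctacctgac

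In Igtp, Irgm2 and Tgtp1 the GAS came first and the ISRE followed after 2 bases. The ISRE of Igtp began 34 bases before the annotated start, that of Irgm2 64 bases and that of Tgtp1 77 bases before it. In Irgm1 the capitals are a pair of ISRE matches that overlap each other, beginning 30 and 24 bases before the start, and no GAS was found. The stretches of Igtp and Irgm2, which are neighbours on chromosome 11 in the RefSeq gene table, had 44 of 45 bases in common, and those of Igtp and Tgtp1 had 32 of 45. A match of letters describes the window and is not a measured binding site.

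**Figure D1:**
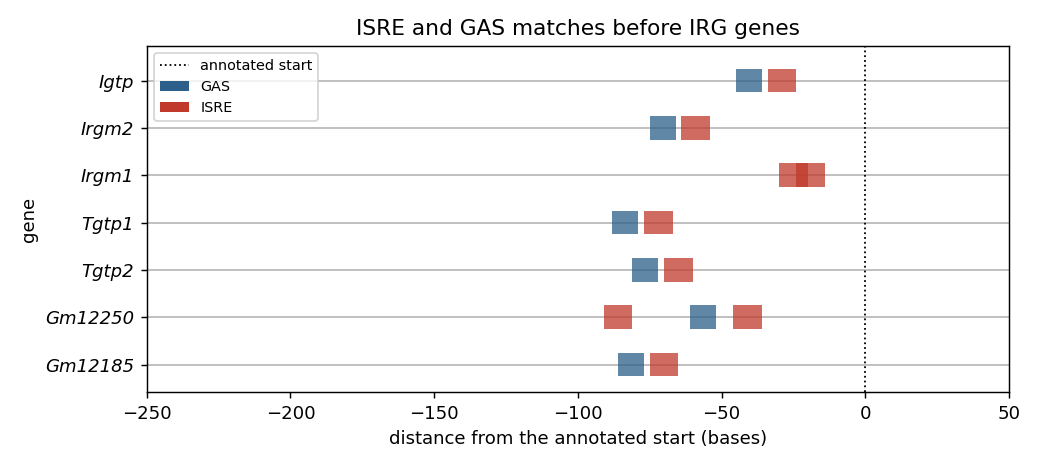
Positions of ISRE and GAS letter matches in RefSeq promoter windows of IRG genes, with the distance from the annotated start in bases on the x axis and a gene per row (Igtp, Irgm2, Irgm1 and Tgtp1 are members, and Tgtp2, Gm12250 and Gm12185 are other IRG genes). A GAS lies 2 bases before an ISRE in Igtp, Irgm2, Tgtp1, Tgtp2 and Gm12185, and Irgm1 has overlapping ISRE matches without a GAS.

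All 4 measured members had lower signals on the Tc9 array than on the Tc1 array. Their log2 differences, Tc9 minus Tc1, lay between -3.30 and -2.16 with a median of -2.33, where the median over all 19505 genes was 0.00453. Each was lower by more than 2-fold, the size used here to call a difference, as were 2.79% of the 10147 detectable genes and 2.08% of all measured genes. None of the 4 was higher by 2-fold, as 2.62% of the detectable and 1.80% of all measured genes were. A gene is called detectable where its brighter array reached a log2 signal of 6.43, the median of all gene values. Among the 1945 genes whose Tc1 signal lay in the members' range, 3.70% were lower by 2-fold or more. Of 383 control probe sets with pos in their names in the same Tc1 range, 1 was lower on the Tc9 array by 2-fold or more and 0 were higher, which says nothing of how separate cultures of 1 kind differ. In bulk RNA such as this, fewer cells with the transcript and less transcript per cell cannot be told apart.

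Iigp1, an effector of the GKS class also known as Irga6, had a probe set signal of 99.0 on the Tc9 array and 978.0 on the Tc1 array, which are log2 signals of 6.63 and 9.93. It was 9.88-fold lower in Tc9 cells, and 14 detectable genes had a more negative difference. On the Tc9 array it stood just above the detection threshold. Of 23 probe sets that measure background by GC content, 8 were brighter than Iigp1 on the Tc9 array and 0 on the Tc1 array. With the threshold moved up to the 60th percentile of gene values, a log2 signal of 7.45, the fold becomes at least 5.60, and at the 75th percentile, 8.77, at least 2.25. Iigp1 had the largest measured fold of the 4, but at the 75th percentile its bound is the smallest.

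The 3 regulators of the GMS class differed by similar amounts. Irgm1 had a signal of 459.8 in Tc9 cells and 2396 in Tc1 cells, log2 signals of 8.84 and 11.23, and was 5.21-fold lower in Tc9 cells. Irgm2 had 432.3 in Tc9 cells and 2103 in Tc1 cells, log2 signals of 8.76 and 11.04, a 4.87-fold lower signal. Igtp, also known as Irgm3, had 777.5 in Tc9 cells and 3469 in Tc1 cells, log2 signals of 9.60 and 11.76, and was 4.46-fold lower. All 3 stayed above the detection threshold on both arrays, and their log2 differences of -2.38, -2.28 and -2.16 span a range too narrow to order with 1 array each. Counted from the most negative difference among the detectable genes, Irgm1 held place 43, Irgm2 place 52 and Igtp place 58.

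**Figure D2:**
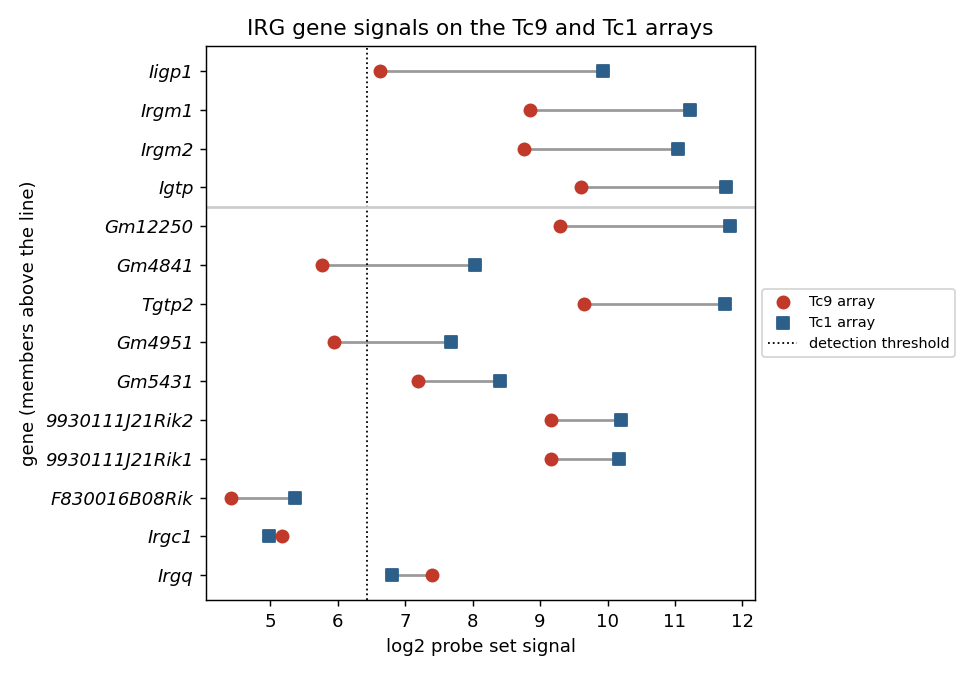
Log2 probe set signals (x axis) of the 4 measured members, above the grey line, and of 10 other IRG genes, below it, with a red circle for the Tc9 array and a blue square for the Tc1 array. The 4 members have their Tc9 signals to the left of their Tc1 signals, with differences from -3.30 to -2.16, and Irgq and Irgc1 are the genes whose Tc9 circle lies to the right.

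The array also held 10 other genes of the family, 8 of them detectable, and on the Tc9 array 6 of these were lower by 2-fold or more and 0 were higher. The shares over all detectable genes were 2.79% lower and 2.62% higher. Gm12250, which encodes the effector Irgb10, was 5.75-fold lower, at log2 signals of 9.29 in Tc9 cells and 11.82 in Tc1 cells. Tgtp2, the near-identical copy of the member Tgtp1, was 4.25-fold lower, at 9.65 in Tc9 cells and 11.74 in Tc1 cells. Probes may not separate the copies, so this value can include transcripts of Tgtp1. Gm4841 and Gm4951, relatives of Iigp1 whose synonyms in the RefSeq table are Ifgga3 and Ifgga2, were at least 3.03-fold and at least 2.37-fold lower, each with its Tc9 signal below the threshold.

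Gm5431, with the synonym Irgb9b8, was 2.32-fold lower, at log2 signals of 7.19 in Tc9 cells and 8.41 in Tc1 cells. 9930111J21Rik2, with the synonym Irgb5, was 2.04-fold lower and 9930111J21Rik1 was 2.00-fold lower, with log2 differences of -1.03 and -0.997 on either side of the 2-fold line. Median centring puts both under 2-fold, and quantile normalization puts both past it. Their signals were 9.17 for both in Tc9 cells and 10.19 and 10.17 in Tc1 cells, and probes may be shared between these near-copies too. F830016B08Rik was below the threshold on both arrays, with a log2 difference of -0.95.

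The remaining relatives, Irgq and Irgc1, are not known as interferon-induced effectors. Irgq had log2 signals of 7.40 in Tc9 cells and 6.81 in Tc1 cells, a log2 difference of 0.59. Irgc1, a testis gene, was below the threshold on both arrays, at 5.18 in Tc9 cells and 4.98 in Tc1 cells. Over the 10 genes the median difference was -1.12, and -1.47 over the detectable 8.

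The promoter windows of the other family genes showed the motifs in part. Tgtp2 and Gm12250 are shown because both were more than 4-fold lower, from chr11:49064263-49064307 on the minus strand and chr11:58183727-58183816 on the plus strand (GRCm38.p6), with capitals as above.
Tgtp2: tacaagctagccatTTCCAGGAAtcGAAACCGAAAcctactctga
Gm12250: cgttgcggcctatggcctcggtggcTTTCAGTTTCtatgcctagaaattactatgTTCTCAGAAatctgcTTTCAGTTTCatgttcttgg
The Tgtp2 stretch had 37 of 45 bases in common with that of Tgtp1. In Gm12250 the capitals are a GAS between a pair of ISRE matches that lie on the opposite strand. The windows of Irgq, Gm5431 and 9930111J21Rik2 held neither motif, and that of 9930111J21Rik1 held an ISRE after the annotated start, so the family's 2-fold lower genes were not all genes with a match in the window. Over the array, 51 of 315 detectable genes with an ISRE in a promoter window were lower in Tc9 cells by 2-fold or more, 16.2%, against 2.60% of the 8311 detectable genes with a window. For genes with both motifs the count was 10 of 42, 23.8%. Among the 10 are Igtp, Irgm2, Tgtp2 and Gm12250, so the IRG genes themselves raise that share. With Irgm1 they are also among the 51. The shares without the IRG genes were not computed. Both shares are given as a description, and no cause was tested.

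**Figure D3:**
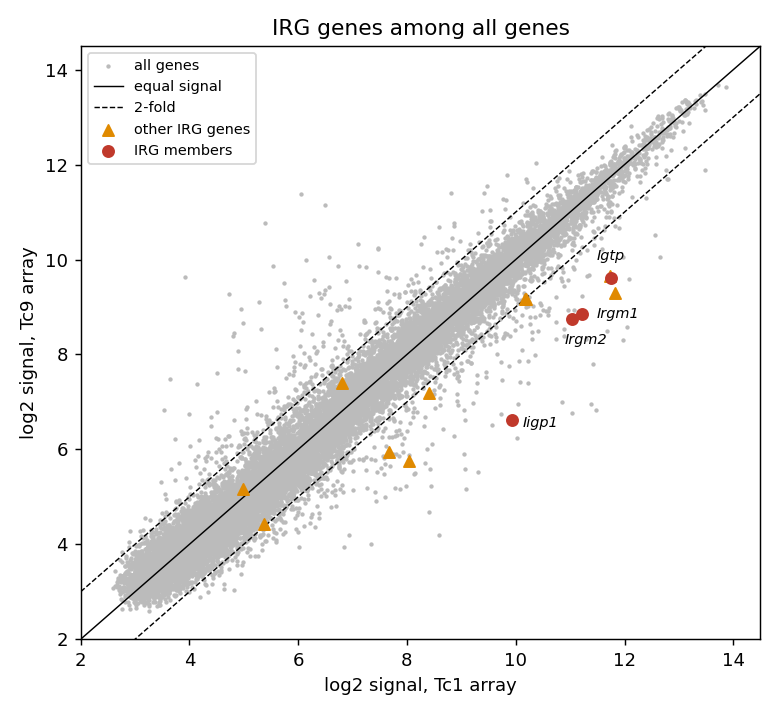
Log2 signal on the Tc9 array (y axis) against the Tc1 array (x axis) for 19505 genes in grey, with the 4 measured members as red circles and the 10 other IRG genes as orange triangles. The solid line marks equal signal and the dashed lines 2-fold, and all 4 members lie below the lower dashed line.

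Among genes outside the family, those nearest to the mean of the 4 members, a log2 signal of 8.46 in Tc9 cells and 10.99 in Tc1 cells, were found by Euclidean distance over the 2 signals. The 6 nearest were Plxnc1, Nrn1, Trim30a, Gbp7, Il10ra and Prrg4, at distances of 0.13 to 0.49 log2 units. Trim30a and Gbp7 are interferon-induced genes, Il10ra encodes a chain of the interleukin 10 receptor, and Plxnc1 encodes a semaphorin receptor. Their differences lay between -2.98 for Gbp7 and -2.01 for Prrg4. With 2 arrays, likeness means only similar signals on both.

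The guanylate-binding proteins (GBPs) are the other large family of interferon-induced GTPases, and they act with the IRGs on pathogen vacuoles. All 6 measured GBP genes were lower in Tc9 cells by 2-fold or more, as were 2.79% of all detectable genes. The median log2 difference of the GBP genes was -2.29, beside -2.33 for the IRG members. Gbp2 was 12.7-fold lower, Gbp7 7.87-fold and Gbp3 5.17-fold, and the smallest differences were those of Gbp4, 4.35-fold, and Gbp8, 2.87-fold. Among other GTPases, the antiviral Mx2 was at least 2.71-fold lower and Gvin1, the very large inducible GTPase, 2.05-fold lower (under 2-fold after median centring), while Atl3, an atlastin of the endoplasmic reticulum that is no interferon effector, differed by 1.16-fold with a log2 difference of -0.22.

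The genes of the interferon gamma pathway did not move as a block. Of 14 measured genes, 3 were lower in Tc9 cells by 2-fold or more and 1 was higher by as much, and the median was -0.14. Among all detectable genes, 2.79% were lower and 2.62% higher by 2-fold or more. The ligand Ifng had log2 signals of 7.57 in Tc9 cells and 9.28 in Tc1 cells, 3.27-fold lower. The antibody in the Tc9 medium of the first 3 days is directed at its product. The media of those days also differed in IL-4, TGF-beta and IL-2. The parts of these factors in any difference cannot be told apart, and none was tested. The receptor chain Ifngr1, which binds the ligand, had 10.18 in Tc9 cells and 10.60 in Tc1 cells, a log2 difference of -0.41. The signalling chain Ifngr2 had 9.92 in Tc9 cells and 8.63 in Tc1 cells and was 2.45-fold higher in Tc9 cells. Ifngr2 was higher where the ligand gene and the 4 IRG members were lower, and a link between them was not tested.

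Downstream of the receptor, the kinases Jak1 and Jak2 had log2 differences of 0.32 and 0.64. Irf1, a transcription factor that interferon gamma induces and that itself acts on IRG promoters, had log2 signals of 9.22 in Tc9 cells and 11.22 in Tc1 cells and was 3.99-fold lower. Irf8, its relative, was 2.46-fold lower. Irf2, a competitor of Irf1, and the phosphatase Ptpn11 hardly differed, at -0.08 and 0.10. Socs1, an inhibitor of the JAK kinases that interferons and IL-4 both induce, had a log2 difference of 0.68, of the opposite sign to Irf1. Nlrc5 was not analysed here.

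Of 12 measured genes of the type I and type III interferon pathway, 4 were lower in Tc9 cells by 2-fold or more and 0 were higher by as much. For all detectable genes of the array these shares were 2.79% and 2.62%. The median of the pathway list was -0.32, and -0.45 over its 10 detectable genes. Irf7, which drives interferon production, was at least 3.82-fold lower, Usp18, a feedback inhibitor of the receptor, 3.71-fold and Stat2, a subunit of the complex that binds the ISRE, 2.70-fold. Irf9, the DNA-binding subunit of that complex, completed the count at 2.02-fold and was named after its value was seen. The receptor genes Ifnar1 and Ifnar2 had log2 differences of -0.39 and -0.24, the kinase Tyk2 -0.10 and Irf3 0.14. Ifnb1 lay below the threshold on both arrays.

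Of the genes for the autophagy and ubiquitin machinery with which IRGs work at vacuoles, none was lower by 2-fold. Over all detectable genes, 2.79% were lower and 2.62% higher by as much, shares at which lists this short would hold few or none. In mouse cells, the enzymes that attach ATG8 proteins such as LC3 to membranes are needed for effectors to load on vacuoles. Of 12 genes for this conjugation, 0 passed 2-fold downward and 1 upward in Tc9 cells, and the median was 0.28. The higher gene was Map1lc3a, an LC3 gene, with log2 signals of 6.92 in Tc9 cells and 5.80 in Tc1 cells. Its Tc1 value was below the threshold, which leaves a fold of at least 1.40. Map1lc3b differed by 0.41 and Atg7, the activating enzyme, by 0.37, while Atg12 and Atg3 differed by 0.04 and -0.01.

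Of 8 measured genes for ubiquitin ligases and ubiquitin-binding adaptors at vacuoles, none passed 2-fold, with a median of -0.03. Trim21, a ubiquitin ligase and itself an interferon-induced gene, came closest at -0.85, followed by Ubqln1 at 0.41 and Nbr1 at -0.27. Tax1bp1 and Ube2n, a ubiquitin-conjugating enzyme, were at -0.07 and 0.01. Of 10 genes that start autophagy, none passed 2-fold either. Rb1cc1, a scaffold of the ULK complex, was at 0.42, the kinase gene Ulk2 at -0.35 and Ambra1 at -0.25, and Pik3r4 and Becn1 were at -0.03 and 0.07. The plot of differences by gene list sets these groups beside the IRG genes.

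**Figure D4:**
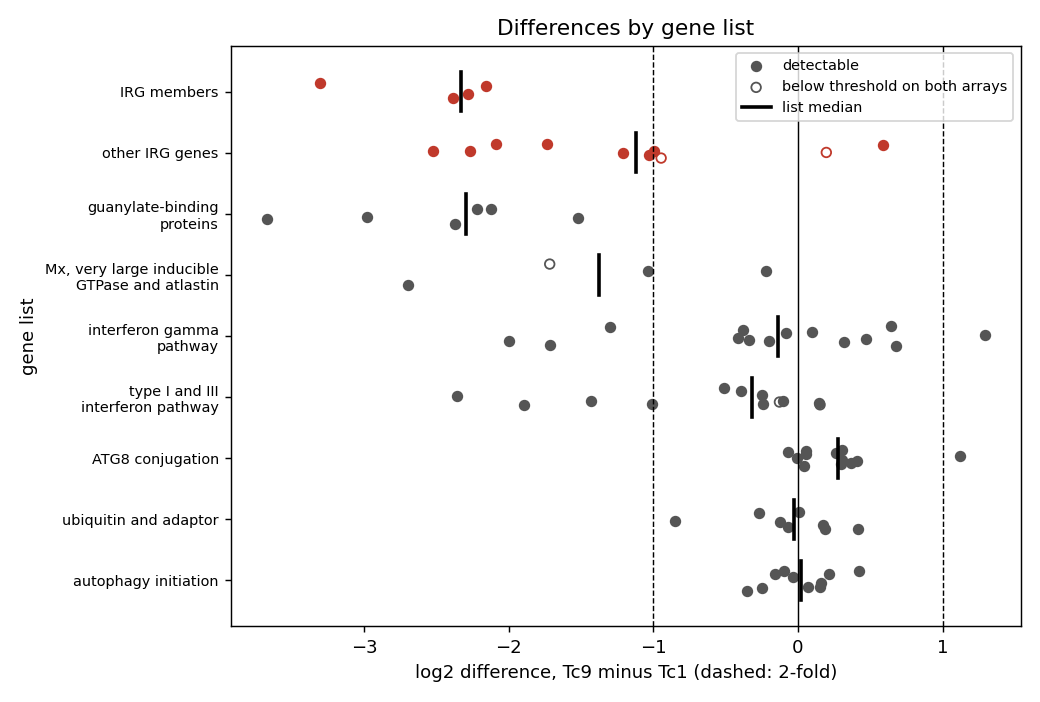
Log2 difference, Tc9 minus Tc1 (x axis), of each measured gene in 9 gene lists, with filled circles for detectable genes, open circles for genes below the threshold on both arrays, black bars for list medians and dashed lines at 2-fold. The medians are -2.33 for the IRG members and -2.29 for the GBPs, against 0.28 for ATG8 conjugation and 0.02 for autophagy initiation.

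The arrays carried the marker signals that their titles name. The 5 core CD8 T cell genes had log2 differences between -0.44 and -0.04. Tc9 cells had an Il9 signal higher by at least 4.07-fold, and Tbx21, the type 1 factor T-bet, was 8.30-fold lower. The Tbx21 log2 signal of 6.50 on the Tc9 array stood just above the threshold, which limits this fold. Some marker genes of cells other than CD8 T cells were detectable too, and IRG genes can be expressed in such cells. All 5 measured B cell markers were detectable, with a summed linear signal of 2362 in Tc9 cells and 3576 in Tc1 cells and log2 differences from -0.97 to -0.23. Of 5 measured monocyte and macrophage markers, 2 were detectable, Lyz2 and Fcgr1, with summed signals over the 5 of 689.5 in Tc9 cells and 591.9 in Tc1 cells, and Csf1r, Adgre1 and Cd14 were below the threshold on both arrays. Of 5 dendritic cell markers, Zbtb46 and Batf3 were detectable, and Flt3, Xcr1 and Itgax were below the threshold on both arrays. The sums over the 5 were 661.6 in Tc9 cells and 927.1 in Tc1 cells, of which Batf3 gave 482.9 and 739.2. Zbtb46 and Fcgr1 reached the threshold on the Tc1 array only. Both measured NK cell markers, Ncr1 and Klrb1c, were below it on both arrays. Cd4 had log2 signals of 8.74 in Tc9 cells and 9.33 in Tc1 cells. Which cells gave these marker signals was not tested, nor was the part of other cells in the IRG differences.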

How the data were processed

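The values deposited by the authors are linear intensities per probe set. Per the labels' protocols, Trizol was used to extract total RNA and biotin to label it. How background, summarization and normalization were handled is not given in the sources used here. The values were taken as normalized because the quantiles lay close together, with medians of 53.1 for Tc9 and 57.2 for Tc1 over 28846 probe sets. The intensities were put on log2 with no pseudocount. Of these probe sets, 19572 carry 1 gene symbol in the platform annotation and 9274 carry none. For 55 genes with several probe sets the one with the higher mean was used. A signal under the threshold gives a fold of "at least", with the threshold in its place. Counts past 2-fold use measured values. The number of arrays limits the precision.

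The members and lists were chosen with earlier results of these data known. Named were all members, all measured family genes, and from each other pathway list the 3 largest and 2 smallest detectable differences, with some fixed pathway genes. Python 3.11.15 and pandas 2.3.3 were used. The calling step was tried on simulated arrays with known shifts in bright genes only. That checks the computation and says nothing of dim genes or of how separate cultures differ. Promoter sequences are from RefSeq, GRCm38.p6. No build was stated with the array, and probe positions were not used.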

Additional observations from a re-analysis of the deposited data

How the results depend on the processing

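The 4 measured members stayed at least 2-fold lower in Tc9 cells under median centring and quantile normalization. The count was also 4 with dim values at the threshold, the mean of all probe sets, and detection thresholds at the 60th and 75th percentiles. These settings could not change it. Each member has 1 probe set, both its signals lay above the threshold, and its Tc1 signal lay above the higher thresholds too. The members' median ran from -2.38 under quantile normalization to -2.26 under median centring, which shifts each difference by 0.0681. The counts over all detectable genes fell with the 75th percentile threshold, which tests fewer genes, to 144 lower and 123 higher in Tc9 cells, beside 283 and 266. Of the other IRG genes, 5 were 2-fold lower under median centring and 7 under quantile normalization, beside 6, and 9930111J21Rik2 and 9930111J21Rik1 were the genes that crossed the line. The type I interferon count became 3 under median centring, without Irf9, beside 4. With dim values at the threshold the median of the other GTPases was -0.63, beside -1.38. No paired analysis was possible because each group has 1 array, and no replicate could be left out. Signal over background limits Iigp1 on the Tc9 array most among the members.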

Other observations

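The mouse IRG genes lie in clusters, and their measured neighbours were read in the same way, a list made after the values of the IRG genes were seen. It holds the 3 nearest measured protein-coding genes on each side of each of 3 clusters on chromosomes 11 and 18, and any gene inside a cluster, by RefSeq gene order. Of these 19 neighbours, 11 were detectable, with a median difference of 0.04 over the 11. Of the 11, Psme2b and Trim7, 2 genes, were lower in Tc9 cells by 2-fold or more, and 0 were higher. Over all detectable genes, 2.79% were lower and 2.62% higher by as much. Psme2b, a copy of the gene of an interferon-induced proteasome activator subunit inside a chromosome 11 cluster, had a difference of -1.04, which falls under 2-fold after median centring. Trim7, a ubiquitin ligase gene beside that cluster, had a measured difference of -1.01. Its Tc9 signal was below the threshold, which leaves a fold of at least 1.07. The 3 detectable neighbours before the cluster of Gm12250, Igtp and Irgm2 had differences between 0.02 and 0.27, and the 3 after it lay between -0.62 and 0.04.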
